A study of Mus musculus with 18 samples.

Results

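The genes of sterol synthesis and cholesterol handling were followed through regulatory and conventional CD4 T cells of 3 mouse tissues. The set was a list of 31 genes of the pathway, each taken by its single annotated symbol and represented by its brightest probe set, and 28 of them were measured among 18193 genes with such a probe set. They comprised 6 mevalonate pathway enzymes, 11 enzymes from squalene to cholesterol, 5 genes of the SREBP control circuit, 3 of cholesterol exit from endosomes and transfer between membranes, and 3 of the LXR export arm. Acat2, Soat1 and Nr1h2, the remaining members, were not analysed here. RNA was read on 18 Affymetrix M430v2 arrays, 3 for each of 6 groups, in which the CD25+ fraction, called Treg here, and the CD25- fraction, called Tconv, were isolated from lymph node, thymus or epididymal fat. Every sort took CD4+ cells that were negative for B220, CD11b and CD8a; the fat sort also required TCRb, and thymocytes were depleted of CD8a+ cells beforehand. Lymph node cells (cervical, inguinal and mesenteric) came from C57BL/6 mice of 32 to 36 weeks, fat cells from male C57BL/6 mice of 25 to 35 weeks, while the thymi were those of BDC2.5/NOD animals aged 4 to 6 weeks, a NOD line that carries a rearranged T cell receptor transgene. Each array held a pool of 3 to 6 mice for lymph node and thymus and of 8 to 10 for fat, with RNA amplified in 2 rounds, so that all errors below are spreads between pools. No treatment is described for any group. CD25 is also carried by activated T cells, so the sort does not define the lineage by itself. Strain and age set thymus apart from lymph node, and stated sex and in part age set fat apart, so tissue cannot be told apart from these.

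Cells make cholesterol from acetyl-CoA through mevalonate, isoprenoid units, squalene and lanosterol. The enzymes are transcribed under SREBP2, a membrane-bound factor that SCAP carries to the Golgi for cleavage when sterols are scarce and that INSIG proteins hold in the endoplasmic reticulum when sterols are plentiful; INSIG1 is itself a target of SREBP, which closes the loop. When oxysterols accumulate, the nuclear receptors LXR switch on the exporters ABCA1 and ABCG1. In T cells the same circuit is known to be drawn on when cells grow and divide, since new membrane needs sterol and prenylated signalling proteins need the isoprenoid branch.

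The start regions of a choice of members called between groups are shown because the SREBP and LXR circuit is read from such elements. Each line gives the 150 bases before an annotated start (RefSeq, GRCm38.p6), written in the direction of the gene; capitals mark matches on either strand to the sterol regulatory element TCACNCCAC, the CCAAT box (read as ATTGG where it lies on the other strand) or the E-box, whose letters are CACGTG. The regions were chr13:119690201-119690350, plus strand for Hmgcs1, chr13:8885456-8885605, plus strand for Idi1, chr5:4104698-4104847, minus strand for Cyp51, chr1:169969206-169969355, minus strand for Hsd17b7, chr5:28071262-28071411, plus strand for Insig1 and chr4:53159896-53160045, minus strand for Abca1.
Hmgcs1: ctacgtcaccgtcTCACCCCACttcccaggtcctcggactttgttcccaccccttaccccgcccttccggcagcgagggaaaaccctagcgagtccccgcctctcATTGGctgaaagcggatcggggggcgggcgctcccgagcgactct
Idi1: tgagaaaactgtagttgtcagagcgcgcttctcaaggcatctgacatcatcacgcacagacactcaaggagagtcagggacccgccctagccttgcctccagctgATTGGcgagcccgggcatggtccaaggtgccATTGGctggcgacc
Cyp51: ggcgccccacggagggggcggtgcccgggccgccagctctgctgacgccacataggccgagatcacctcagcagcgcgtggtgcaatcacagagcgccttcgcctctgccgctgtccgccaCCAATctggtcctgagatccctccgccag
Hsd17b7: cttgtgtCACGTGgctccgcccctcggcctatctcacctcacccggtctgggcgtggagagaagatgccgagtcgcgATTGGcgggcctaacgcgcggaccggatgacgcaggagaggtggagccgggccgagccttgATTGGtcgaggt
Insig1: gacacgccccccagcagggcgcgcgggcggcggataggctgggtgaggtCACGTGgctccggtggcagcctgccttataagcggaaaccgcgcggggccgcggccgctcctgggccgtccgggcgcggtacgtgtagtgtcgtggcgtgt
Abca1: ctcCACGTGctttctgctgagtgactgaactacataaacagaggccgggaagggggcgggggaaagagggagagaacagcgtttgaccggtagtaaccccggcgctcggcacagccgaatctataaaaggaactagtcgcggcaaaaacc

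Windows of 300 bases, from 250 before a start to 50 after it, were given for 22 of the 28 members. A CCAAT box was present in the windows of 19 of these 22 genes and in 64.5% of their 31 windows, against 37.4% of all 32851 windows. The E-box stood in 22.6% of member windows, those of Abca1, Dhcr7, Hsd17b7, Insig1, Sc5d and Scap, against 7.15% of all. TCACNCCAC was found in Hmgcs1 alone among the members, 137 bases before its start, and in 1.24% of all windows. The LXR element was searched as 2 exact copies of AGGTCA in the same direction with 4 bases of any kind between them. It matched no member window and only 5 of all 32851 windows (0.0152%). With exact copies so rare, the miss cannot tell whether a member window holds a diverged copy. All motif counts here are matches of letters within short windows and not bound sites.

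The deposited fat arrays had medians of 76.9 to 82.2 and the 12 others of 57.9 to 63.0. Treg were therefore compared with Tconv within a tissue on intensity as deposited, and tissues were compared on intensity after quantile normalization of all 18 arrays, called the common scale here. All 28 measured members passed a filter on dim signals that kept 12821 genes, and a gene was called at an adjusted p under 0.05 (limma, Benjamini-Hochberg over those genes). Arrays of adjacent file numbers were taken as runs, of which there were 5; the Treg and Tconv arrays of a pair, which carry the same replicate number, always shared a run. Lymph node replicates 1, 2 and 3 shared runs with fat replicates 3, 2 and 1; differences within runs follow the order of the lymph node replicates and those within pairs the replicate number. All 5 Treg markers, Foxp3, Ctla4, Il2ra, Ikzf2 and Tnfrsf18, were called higher in Treg in each tissue; Il2ra encodes CD25, the sort marker. The summed intensity of 4 adipocyte markers on the common scale was 72.7 to 92.3 in lymph node and thymus arrays and 1456 to 2608 in fat arrays, and that of 5 stromal and endothelial markers was 203 to 225 and 1867 to 5160.2. The sum of 10 macrophage markers was 690.2 to 887 in lymph node, 638 to 1209 in thymus and 909 to 3545 in fat. In each fat group replicate 2 held the lowest adipocyte and macrophage sums. Of the adipocyte markers, only Fabp4, which other cell types also express, passed the filter on dim signals.

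Preparations sorted from fat held more transcript of Insig1, Stard4 and several synthesis enzymes than those from lymph node, in both Treg and Tconv. They held less of the exporters Abca1 and Abcg1. Markers of adipocytes, stroma and macrophages were also higher in the fat preparations, and their part was not tested. Of the 28 members, 11 were called in Treg (9 higher and 2 lower, 39.3%) and 9 in Tconv (7 higher and 2 lower, 32.1%). Among all genes 34.3% were called in Treg, 16.1% higher and 18.2% lower, and 22.5% in Tconv, 10.9% higher and 11.6% lower. The share of members called in Treg was thus near that of all genes. The arrays of the 2 tissues did not overlap for 15 of 28 members in Treg, against 49.5% of all genes. In Tconv they did not for 14 of 28, against 36.3%. The enzymes accounted for 7 of the higher members in Treg, of 17 measured, with none lower, and for 5 in Tconv. Their median log2 difference was 0.36 in Treg and 0.25 in Tconv, against 0.01 and -0.03 over all genes. The members called in both, with the same sign, were Insig1, Stard4, Idi1, Sqle, Cyp51, Sc5d, Abca1 and Abcg1. With run as a fixed block over the lymph node and fat arrays, 13 members were called in Treg, where Srebf2 and Lss joined, and 11 in Tconv, where Hmgcs1 and Lss joined. Over all genes that fit called 5516 instead of 4392 in Treg and 3944 instead of 2887 in Tconv.

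Insig1, the sterol-regulated brake on SREBP processing, rose most among the members in both cell types. On the common scale its intensity was 213, 189.7 and 173 in the 3 lymph node Treg arrays and 752, 893 and 881 in the 3 of fat Treg. The lymph node Tconv arrays read 195, 169 and 196 and those of fat Tconv 868, 480.2 and 801. Every fat array lay above every lymph node array, and the lowest of the fat arrays was Tconv replicate 2. The log2 difference was 2.13 ± 0.21 (SE) in Treg, a 4.39-fold rise (adjusted p = 5.48e-07), and 1.90 ± 0.21 in Tconv, a 3.72-fold rise (adjusted p = 4.79e-06). Within the 3 runs that held both tissues it was 2.05, 2.23 and 2.12 in Treg and 2.04, 1.51 and 2.15 in Tconv.

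**Figure D1:**
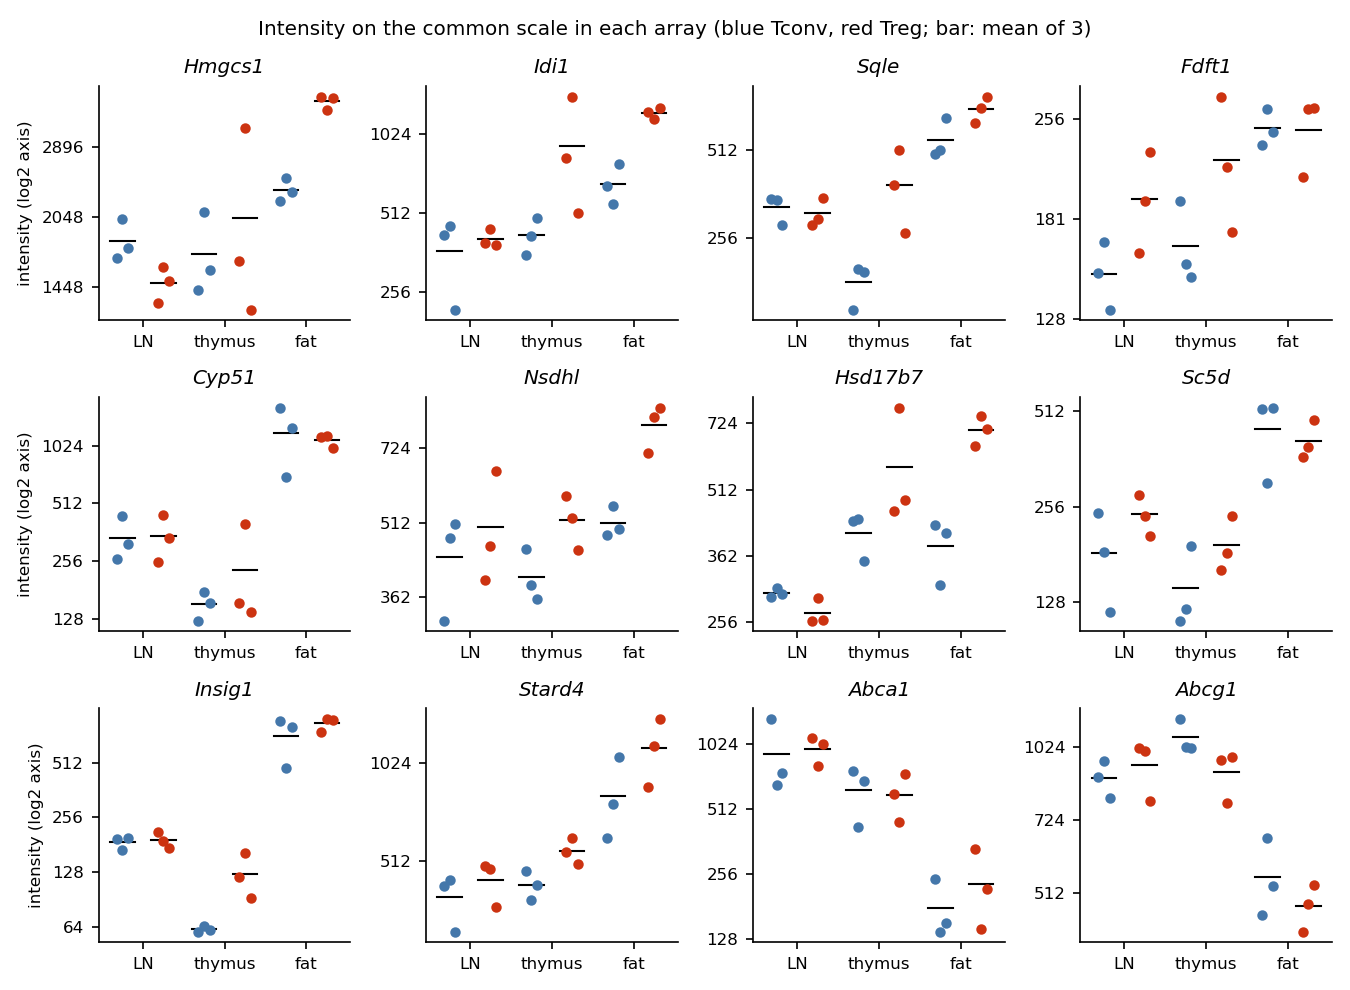
Intensity on the common scale (vertical axis, log2 spacing, a scale per panel) of 12 members in each of 18 arrays, by tissue, with Tconv in blue, Treg in red and a bar at the mean of 3 arrays. In the Insig1 and Cyp51 panels all 6 fat arrays sit above all 12 others, and in the Abca1 and Abcg1 panels all 6 sit below them.

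Of the 6 mevalonate enzymes, Hmgcs1 and Idi1 rose in fat Treg, and Idi1 alone rose in fat Tconv. Hmgcs1, which makes HMG-CoA, read 1338, 1599 and 1492 in lymph node Treg and 3710.3, 3480.5 and 3686 in fat Treg, a rise of 1.30 ± 0.23 (adjusted p = 0.000337). In Tconv it read 1678, 2033 and 1758 in lymph node and 2221, 2479 and 2323 in fat, groups that did not overlap, with a difference of 0.36 ± 0.23 that missed the threshold (adjusted p = 0.298). Its 4 other probe sets gave 1.10 to 1.58 in Treg and -0.14 to 0.21 in Tconv. Idi1, the isomerase of isopentenyl diphosphate, went from 394, 446 and 388 in lymph node Treg to 1246, 1164 and 1287 in fat Treg, 3.01-fold (1.59 ± 0.30, adjusted p = 0.000512). In Tconv the readings were 425, 458 and 219.9 and 648, 553 and 789, a rise of 0.91 ± 0.30 (adjusted p = 0.0369) that was 0.89, 0.27 and 1.56 in the 3 runs. Lymph node Tconv replicate 3 was the lowest of those arrays, and without it the difference was 0.57 (adjusted p = 0.193); without fat Tconv replicate 1 or 3 the adjusted p was 0.0816 or 0.129. Mvk (74.7 to 116 over the 18 arrays), Pmvk (154 to 287) and Mvd (63.0 to 101), the kinases and decarboxylase that follow mevalonate, and Fdps (55.0 to 168), the farnesyl diphosphate synthase, differed by -0.18 to 0.09 in log2 in either cell type, and none was called.

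Of the 11 enzymes from squalene to cholesterol, 5 rose in fat Treg and 4 in fat Tconv. Cyp51, the lanosterol demethylase, read 253, 445 and 336 in lymph node Treg and 1135, 1150.3 and 992 in fat Treg, a 3.25-fold rise (1.70 ± 0.35, adjusted p = 0.00127). In Tconv it read 262, 442 and 313 and 1619, 699 and 1260.0, 3.4-fold (1.77 ± 0.35, adjusted p = 0.00157). The fat Tconv arrays were uneven, with replicate 2 well below the other two, and the difference within runs was 2.27, 0.66 and 2.37. With the mean of its probe sets Cyp51 differed by 1.08 in Tconv (adjusted p = 0.00114). Sqle, the squalene epoxidase and a rate-limiting step, was 284, 296 and 351 in lymph node Treg and 636, 713 and 783 in fat Treg (1.20 ± 0.20, adjusted p = 0.00023). The Tconv arrays read 349, 344 and 284 and 498, 512 and 663 (0.77 ± 0.20, adjusted p = 0.0114). In neither cell type did the tissues overlap, and the Tconv call was lost without lymph node Tconv replicate 3 (adjusted p = 0.0523) or fat Tconv replicate 3 (0.061). Fdft1, the squalene synthase, was called in Tconv, from 149.8, 167 and 132 to 234, 266 and 245 (0.74 ± 0.18, adjusted p = 0.00641). In Treg its arrays overlapped, 161, 193 and 228 in lymph node and 209.5, 265 and 267 in fat (0.36 ± 0.18, adjusted p = 0.137). With the mean of its probe sets Fdft1 was called in both, at 0.31 in Treg (adjusted p = 0.0158) and 0.49 in Tconv (0.00117). It was also called in Treg as deposited (0.61, adjusted p = 0.00932).

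Further along the sterol branch, Hsd17b7, Nsdhl and Sc5d were called in Treg, and Sc5d in Tconv as well. Hsd17b7, the 3-ketosteroid reductase of the C4-demethylation complex, was 258, 289.8 and 258 in lymph node Treg and 644, 750.3 and 704 in fat Treg, a 2.6-fold rise (1.38 ± 0.18, adjusted p = 1.36e-05). In Tconv it read 291, 305 and 296 and 425, 311 and 409, with a difference of 0.35 ± 0.18 (adjusted p = 0.189). Its other 3 probe sets gave 0.93, 0.65 and -0.08 in Treg, and the probe set used is of a kind that by Affymetrix naming may bind other transcripts. Nsdhl, the C4-decarboxylating dehydrogenase of the same complex, rose in Treg from 393, 460.1 and 653 to 708, 837 and 874 (0.71 ± 0.19, adjusted p = 0.00846), by 1.15, 0.86 and 0.12 in the 3 runs; without lymph node Treg replicate 1 the adjusted p was 0.0543. In Tconv the difference was 0.25 ± 0.19 (adjusted p = 0.394), with 325, 477 and 508 in lymph node and 483, 555 and 497 in fat. Sc5d, the lathosterol oxidase, was called in both, from 278, 240.2 and 208 to 366, 393 and 479 in Treg (0.77 ± 0.27, adjusted p = 0.0356) and from 245, 184 and 119.8 to 519, 303 and 525 in Tconv (1.31 ± 0.27, adjusted p = 0.00195). The 2 dimmer probe sets of Sc5d did not follow, at 0.14 and -0.46 in Treg and 0.32 and -0.38 in Tconv, and with the mean of all its probe sets the difference was 0.15 in Treg (adjusted p = 0.395) and 0.42 in Tconv (0.0297). The Treg call was also lost on leaving out lymph node replicate 2 or 3 or any fat replicate (adjusted p = 0.0505 to 0.119). Lss (132 to 345 over the 18 arrays) and Tm7sf2 (67.7 to 178) were not called. Nor were Msmo1 (85.5 to 217), Ebp (363 to 849) and Dhcr7 (97.7 to 249). These enzymes carry out other steps from squalene to cholesterol. Their differences ran from -0.35 for Dhcr7 to 0.50 for Lss in Treg and from -0.45 to 0.48 for the same genes in Tconv.

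**Figure D2:**
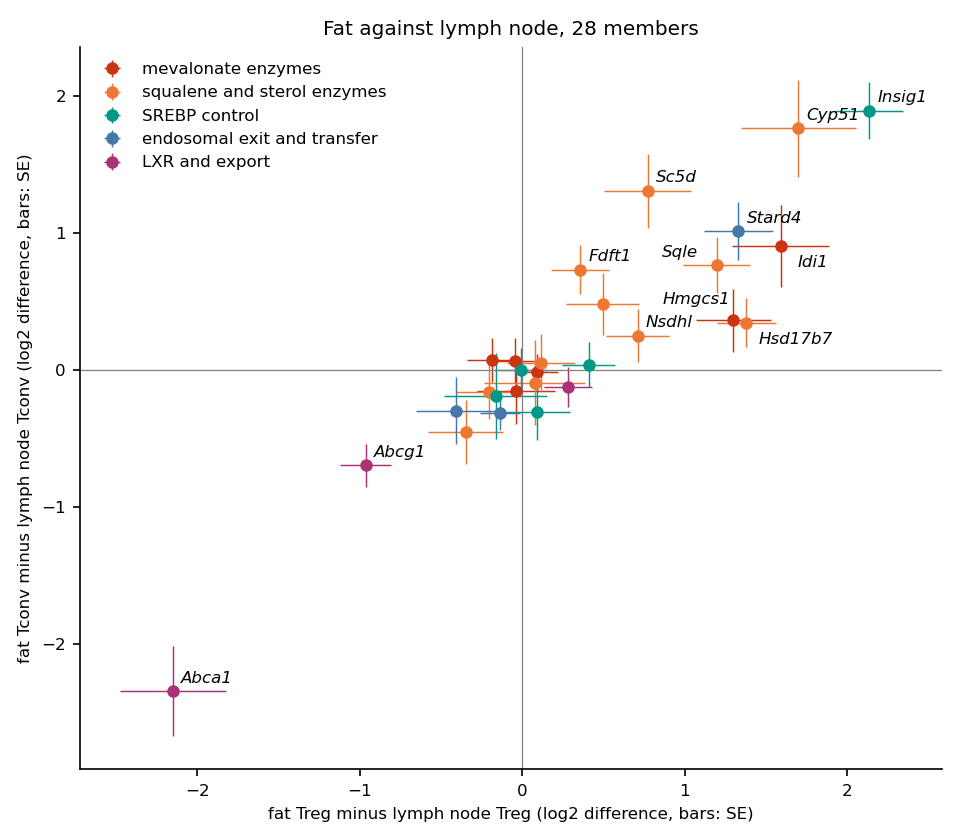
Log2 difference between fat and lymph node of 28 members in Treg (horizontal axis) and Tconv (vertical axis), with SE bars and colours for the arm of the pathway. Insig1 and Cyp51 lie at the upper right, with 2.13 and 1.70 in Treg, and Abca1 lies at the lower left, with -2.15 in Treg and -2.34 in Tconv.

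Of the SREBP control genes, Insig1 alone was called between fat and lymph node. Srebf2, which encodes the main sterol-responsive SREBP, read 223, 237 and 252 in lymph node Treg and 345, 332 and 273 in fat Treg. The difference of 0.41 ± 0.16 missed the threshold (adjusted p = 0.0615), and it passed with run as a random block (adjusted p = 0.0172) or without fat Treg replicate 3 (0.51, adjusted p = 0.042). In Tconv the arrays were 214, 291 and 285 and 344, 249 and 226 (0.04 ± 0.16, adjusted p = 0.89). Srebf1, which is better known for fatty acid synthesis, read 218, 179 and 215 in lymph node Treg and 249, 214 and 189 in fat Treg, and 225, 226 and 269 and 186, 219.8 and 178 in Tconv. Scap, the escort, read 416, 430.5 and 480.1 and 401, 541 and 390.2 in Treg, and 403, 411 and 456 and 364, 533 and 391 in Tconv. For both genes the tissues overlapped in Treg, and the log2 differences lay between -0.30 and 0.09. In Tconv Scap overlapped, whereas Srebf1 was lower in fat without overlap, as 36.3% of all genes were without overlap there in either direction. Insig2, the INSIG not known as an SREBP target, read 689, 598 and 357 and 357, 452 and 649 in Treg (-0.16 ± 0.32, adjusted p = 0.719), and 663, 743 and 509.6 and 506, 398 and 842 in Tconv (-0.19 ± 0.32, adjusted p = 0.733). Its 2 other probe sets gave lower values in fat, -0.59 and -0.55 in Treg and -0.70 and -0.83 in Tconv.

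Abca1 and Abcg1 fell in fat in both cell types, and Stard4 rose. Abca1, the exporter that loads lipid-poor apolipoprotein with cholesterol, fell from 1084, 808 and 1019 in lymph node Treg to 332, 142 and 216 in fat Treg. In Tconv it fell from 1339.8, 661 and 746 to 242, 138 and 152. All 6 fat arrays were below all 6 lymph node arrays, and Abca1 was 4.44-fold lower in Treg (-2.15 ± 0.33, adjusted p = 7.64e-05) and 5.08-fold lower in Tconv (-2.34 ± 0.33, adjusted p = 6.12e-05). Within runs the difference was -2.33, -2.51 and -1.62 in Treg and -3.14, -2.26 and -1.63 in Tconv. The fall was carried by a single bright probe set; the 2 others were dim, with mean intensities of 35.0 and 13.1, and gave 0.20 and 0.15 in Treg, so that the mean over probe sets was -0.60 in Treg and -0.69 in Tconv. Abcg1, which exports cholesterol to mature lipoprotein, read 1021, 1006 and 794 and 426, 487 and 530.5 in Treg (-0.96 ± 0.16, adjusted p = 0.000134), and 889, 959.9 and 805 and 460.1, 666 and 529 in Tconv (-0.69 ± 0.16, adjusted p = 0.0037). Its other probe set gave -1.04 and -0.77. Nr1h3, which encodes LXR alpha, was dim, at 70.3 to 108 over the 18 arrays on the common scale, and was not called. As deposited, Nr1h3 was called higher in fat Treg (0.66, adjusted p = 0.00162). Stard4, a carrier that moves cholesterol between membranes, rose from 494, 482 and 369 to 865, 1152 and 1402 in Treg (1.33 ± 0.21, adjusted p = 0.000128) and from 428, 449 and 310.0 to 603, 768 and 1068 in Tconv (1.02 ± 0.21, adjusted p = 0.00229). Its 2 other probe sets gave differences of the same sign, 2.43 and 0.85 in Treg and 2.39 and 0.76 in Tconv. Npc1 (67.8 to 299) and Npc2, which pass cholesterol out of late endosomes, were not called between fat and lymph node. In Tconv, Npc2 ran from 6690.1 to 7088.7 in lymph node and from 5085.6 to 6220.9 in fat, without overlap. It was called lower there with run as a random block (-0.32, adjusted p = 0.0266) and with the mean of its probe sets (-0.45, adjusted p = 0.0139). As deposited, Npc2 was called higher in fat Treg (0.39, adjusted p = 0.0223).

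Markers of other cells differed between the same groups. The adipocyte marker sum was 2608, 1456 and 2188 in the fat Tconv arrays and 2469, 1823 and 2355 in fat Treg; the macrophage sum was 2412, 909 and 1953 and 3071, 1199.9 and 3545. Tconv replicate 2, with the lowest of both, was also the lowest fat Tconv array for Cyp51, Insig1, Sc5d and Idi1. Sqle, Stard4 and Fdft1, the other members called higher in fat Tconv, were lowest in replicate 1. The stromal and endothelial sum was 3835.5, 1970.7 and 1867.1 in the fat Tconv arrays. Treg replicate 2 had the highest Insig1 of fat Treg. A fit with only replicate 2 of each fat group was chosen after seeing the data. Any test in it assumes that a lone array varies like the others. Insig1 then differed from lymph node by 2.22 in Treg and 1.37 in Tconv, Abca1 by -2.76 and -2.66, and Stard4 by 1.37 and 0.98. Replicate 2 still had adipocyte sums of 1456 in Tconv and 1823 in Treg, against 74.6 to 92.3 in lymph node. The fit therefore cannot separate transcripts of T cells from those of other cells. The cell division sum was 9811, 6203 and 9748 in fat Tconv, where replicate 2 was again the lowest, and 4750.2, 5828 and 4547 in lymph node Tconv; of its 12 genes 11 had a positive difference and 3 were called higher. In Treg it was 5215, 4598 and 5203 in fat and 5547, 6244 and 4950.4 in lymph node, with 2 genes called lower. The part of these markers in the differences was not tested. In bulk RNA, fewer cells with a transcript and less of it per cell cannot be told apart.

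The direction of these calls held on each of the scales tried. On intensity as deposited, where the median of all genes was 0.36 higher in fat in Treg and 0.33 in Tconv, 17 members were called in Treg (15 higher, 2 lower) and 15 in Tconv (14 higher, 1 lower). All genes then split into 5838 higher and 1180 lower in Treg and 4899 and 526 in Tconv, against 2060 and 2332, and 1402 and 1485, on the common scale. Relative to the all-gene median, Insig1 was at 2.05 as deposited and 2.12 on the common scale in Treg. Abca1 was at -2.23 and -2.16. The difference of Abcg1 in Tconv as deposited was -0.37 (adjusted p = 0.142).

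**Figure D3:**
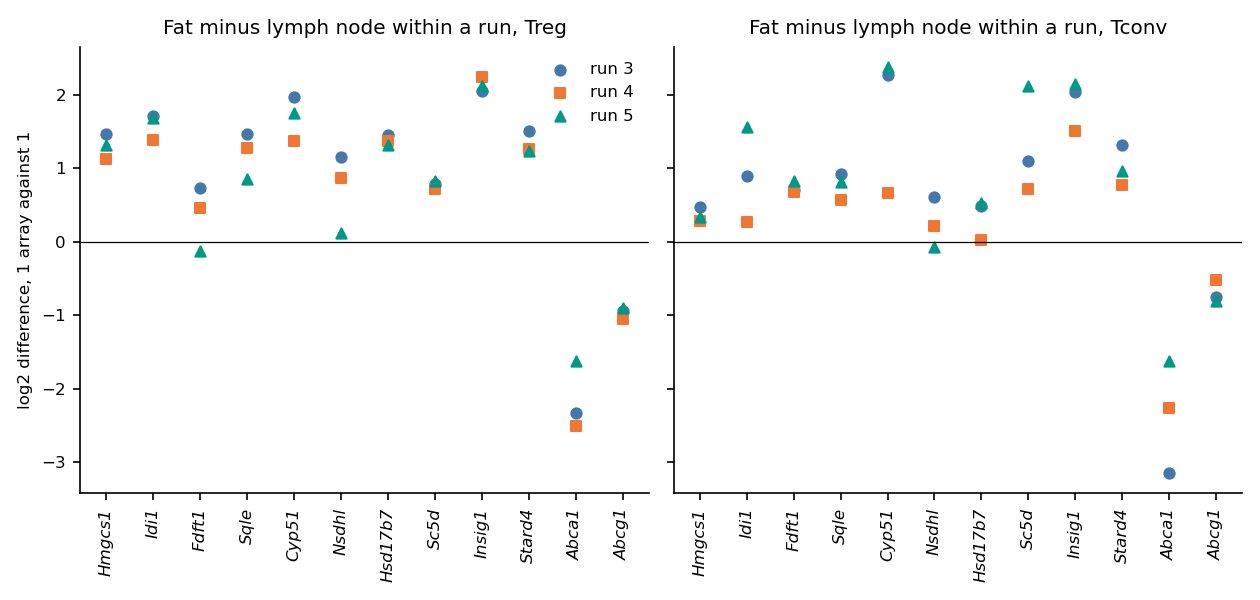
Log2 difference between 1 fat and 1 lymph node array of the same run (vertical axis) for 12 members called in Treg or Tconv, in Treg (left) and Tconv (right), with a symbol per run. Insig1 lies between 2.05 and 2.23 in Treg, whereas Cyp51 in Tconv runs from 0.66 to 2.37.

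In the thymus, Treg carried more Sqle and Insig1 and less Npc2 transcript than Tconv. These 3 of 28 members were called (2 higher, 1 lower, 10.7%), against 4.98% of all genes, 3.21% higher and 1.77% lower. On intensity as deposited, Sqle was 135, 190.3 and 183 in thymic Tconv and 377, 481 and 253 in thymic Treg, 2.13-fold (1.09 ± 0.22, adjusted p = 0.00544). Insig1 was 55.6, 58.2 and 55.3 in Tconv and 112, 150.4 and 84.5 in Treg (1.00 ± 0.21, adjusted p = 0.00653). Its Tconv arrays lay below the 65.89 of the dim filter. With 16 added to each intensity the Insig1 difference was 0.83 (adjusted p = 0.0147). In both genes Treg replicate 2 was the highest array and Treg replicate 3 the lowest of Treg, and all Treg arrays lay above all Tconv arrays. In either direction, 11 of 28 members were without overlap in thymus, against 19.3% of all genes. Within the 3 pairs, Sqle differed by 1.48, 1.34 and 0.47 and Insig1 by 1.02, 1.37 and 0.61. With a fit on the thymus arrays alone neither was called (adjusted p = 0.0798 and 0.0535). Npc2, the soluble cholesterol carrier of late endosomes and the brightest member, read 6994, 6998 and 7276 in Tconv and 4684, 3782 and 4757 in Treg, 1.62-fold lower (-0.69 ± 0.14, adjusted p = 0.00413), and its other 3 probe sets gave -0.87, -0.50 and -0.74.

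Of the 17 enzymes, 16 had a positive difference in thymic Treg, though Sqle alone passed the test; the median was 0.32 against -0.02 over all genes. Idi1 was 330.2, 407 and 484 in Tconv and 786, 1337 and 497 in Treg, groups that did not overlap, with a difference of 1.00 ± 0.32 (adjusted p = 0.0903). By pair it was 1.25, 1.72 and 0.04, the pair of replicate 3 being the smallest. In a fit with the replicate pair as a block, 7 members were called instead of 3: Idi1 (adjusted p = 0.0263), Nsdhl (0.37, 0.0418), Sc5d (0.49, 0.0365) and Fdft1 (0.44, 0.0452) joined the higher ones. Of all genes 1528 were then called, against 638. The thymic Treg pools were uneven for these genes. The median log2 SD of members was 0.30 there, against 0.20 over all genes, and was highest for Cyp51 at 0.84, which read 154, 399 and 139 on the common scale. The cell division markers, 12 genes summed, read 23684, 24128 and 11961 in the thymic Treg arrays and 15754, 14030.0 and 18604 in thymic Tconv. The sum of 6 immature thymocyte markers read 5523, 5305 and 2378 and 3707, 4382 and 2398. Treg replicate 3, lowest in both sums, was also lowest for Sqle, Insig1 and Idi1; the part of these markers was not tested.

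In fat, Treg exceeded Tconv in 3 enzymes. Hsd17b7, Hmgcs1 and Nsdhl were called higher and no member lower (3 of 28, 10.7%), close to the 11.5% of all genes, of which 6.32% were higher and 5.19% lower. Hsd17b7 was 431, 379 and 487 in fat Tconv and 733, 837 and 818 in fat Treg on deposited intensity (0.88 ± 0.17, adjusted p = 0.00202). Its other 3 probe sets gave 0.45, 0.05 and -0.13, and with the mean of its probe sets the difference was 0.31 (adjusted p = 0.0936). Hmgcs1 was 2471, 2904 and 2826 in Tconv and 4837, 4277 and 4669 in Treg (0.75 ± 0.23, adjusted p = 0.0393). Nsdhl was 493, 664 and 595 and 813, 936 and 1029.5 (0.67 ± 0.16, adjusted p = 0.0113). For each gene all 3 Treg arrays lay above all 3 Tconv arrays, and the pairs gave 0.76, 1.14 and 0.75 for Hsd17b7, 0.97, 0.56 and 0.72 for Hmgcs1 and 0.72, 0.49 and 0.79 for Nsdhl. In either direction, 4 of 28 members were without overlap in fat, against 25.2% of all genes. Idi1, at 661, 663 and 949.5 in Tconv and 1495, 1316 and 1534 in Treg, missed the threshold (0.95 ± 0.32, adjusted p = 0.066). With the replicate pair as a block 6 members were called, Idi1 (adjusted p = 0.0208), Stard4 (0.54, 0.00388) and Pmvk (-0.39, 0.0463) besides the 3, and 2652 genes against 1476. The call of Hmgcs1 was lost on leaving out any of the 6 fat arrays (adjusted p = 0.068 to 0.119), and that of Nsdhl without Treg replicate 3 (0.0637) or Tconv replicate 1 (0.0505). Without Treg replicate 3, 1 member was called, and with the replicate 2 pair alone no member was called. Cyp51 (-0.02 ± 0.34) and Sc5d (-0.11 ± 0.28) had negative differences and were not called. The cell division sum was 9811, 6203 and 9748 in fat Tconv and 5215, 4598 and 5203 in fat Treg, which is lower in Treg in each pair, and the macrophage sum was higher in Treg in each pair; the part of either was not tested.

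**Figure D4:**
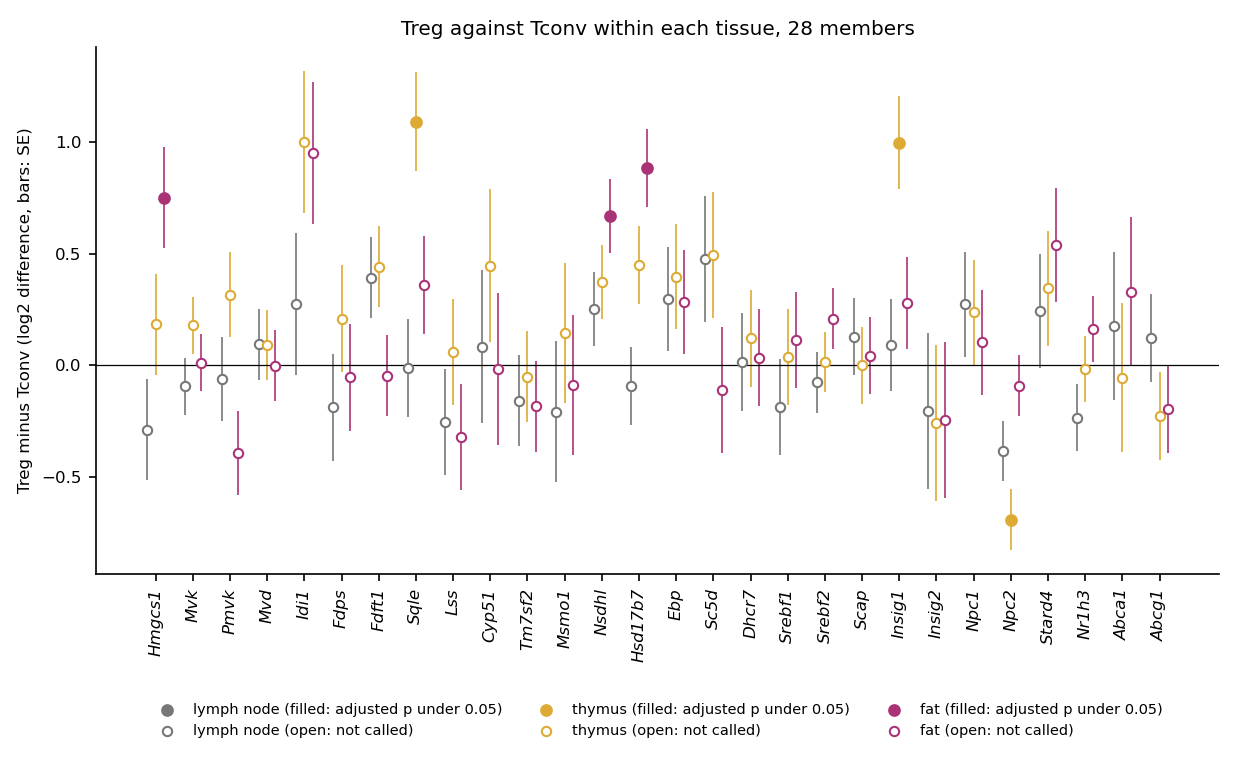
Log2 difference of Treg minus Tconv on deposited intensity (vertical axis, bars SE) of 28 members in lymph node (grey), thymus (yellow) and fat (purple), with filled symbols for an adjusted p under 0.05. The filled symbols are Sqle, Insig1 and Npc2 in thymus and Hmgcs1, Nsdhl and Hsd17b7 in fat, and lymph node has none.

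In lymph node no member was called between Treg and Tconv by limma, against 4.32% of all genes (3.21% higher and 1.11% lower). At an unadjusted p under 0.05 there were 2 of 28, against 11.3% of all genes. Arrays did not overlap for 5 of 28 members, against 16.5% of all genes. Differences ran from -0.39 for Npc2 to 0.48 for Sc5d. Npc2 read 6431, 5895 and 6251 in Tconv and 5216, 4615 and 4414 in Treg, without overlap (adjusted p = 0.169), and was called with the replicate pair as a block (adjusted p = 0.0411), where 1028 genes were called against 554. The intervals of Sqle (-0.48 to 0.45) and Insig1 (-0.35 to 0.53) in log2 leave room for differences of a size that the test did not resolve. Set against this, the Treg difference was larger in fat for a single member, Hsd17b7 (fat minus lymph node 0.98 ± 0.25, adjusted p = 0.0271; 4.85% of all genes were called in that comparison, 2.16% with a larger difference in fat and 2.69% with a smaller). That call was lost without lymph node Treg replicate 1 or 3, lymph node Tconv replicate 1 or 2, fat Treg replicate 2 or 3, or fat Tconv replicate 2 (adjusted p = 0.0532 to 0.0748). Hmgcs1 followed at 1.04 ± 0.32 (adjusted p = 0.0806), and was called with the replicate block (adjusted p = 0.00656), with run as a random block (0.0149) and in a fit on the groups compared (0.00533). No member was called by limma for thymus minus lymph node, where 0.304% of all genes were (0.156% higher and 0.148% lower); 3 members passed an unadjusted p under 0.05 (10.7%, against 5.42% of all genes), and Sqle was at 1.11 ± 0.31 (adjusted p = 0.26). For fat minus thymus, with 6.19% of all genes called (2.97% higher and 3.21% lower), no member passed and 4 had an unadjusted p under 0.05 (14.3%, against 16.6% of all genes), Npc2 being nearest at 0.60 ± 0.19 (adjusted p = 0.0788). With the replicate block Npc2 (adjusted p = 0.0176) and Pmvk (-0.71, adjusted p = 0.0213) were called there. Leaving out thymic Treg replicate 3 gave 1 called member for thymus minus lymph node, and leaving out thymic Treg replicate 2 or 3 or fat Tconv replicate 1 or 3 gave 1 for fat minus thymus.

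Between thymus and lymph node, Hsd17b7 and Idi1 were higher in thymic Treg, and Insig1 and Sqle were lower in thymic Tconv. In Treg 2 of 28 members were called, both higher (7.14%, against 11.8% of all genes, 6.12% higher and 5.71% lower). In Tconv 2 were called, both lower (7.14%, against 8.88% of all genes, 4.38% higher and 4.5% lower). Hsd17b7 rose in thymic Treg, from 258, 289.8 and 258 in lymph node to 457, 786 and 484 on the common scale (1.06 ± 0.18, adjusted p = 0.000736). With the mean of its 4 probe sets that difference was 0.45 (adjusted p = 0.016). Idi1 read 394, 446 and 388 and 831, 1421 and 512 (1.05 ± 0.30, adjusted p = 0.0285), a call lost without thymic Treg replicate 1 (adjusted p = 0.0769) or 2 (0.144) or any lymph node Treg replicate (0.058 to 0.0874). In Tconv Insig1 fell 3-fold, from 195, 169 and 196 to 60.2, 64.7 and 61.4 (-1.59 ± 0.21, adjusted p = 6.69e-05). These thymic arrays lay close together but below the 65.89 of the dim filter, so the size of the fall is uncertain. With 16 added to each intensity the difference was -1.37 (adjusted p = 0.0001755). Sqle fell from 349, 344 and 284 to 145, 200.4 and 195 (-0.86 ± 0.20, adjusted p = 0.0113), which was lost without thymic Tconv replicate 1 (0.0742) or lymph node Tconv replicate 2 (0.0519). Cyp51, at 125, 177 and 155 in thymic Tconv, was lower than in lymph node by a margin that missed the threshold (-1.14 ± 0.35, adjusted p = 0.0571). It was called there with the mean of its probe sets (-0.94, adjusted p = 0.00702), run as a random block (0.0384) and only the groups compared (0.0076). It was not called as deposited, with median centring or with the replicate block. With the mean of its probe sets Cyp51 was also called lower in thymic Treg (-0.73, adjusted p = 0.0268). Thymus and lymph node shared only 1 run, in which the Tconv difference was -1.67 for Insig1 and -0.84 for Sqle, and the Treg difference 0.91 for Hsd17b7 and 0.38 for Idi1. Srebf2 read 191, 235 and 228 in thymic Tconv and 218, 219.7 and 214 in thymic Treg, Srebf1 261, 184 and 159 and 283, 175 and 162, Scap 441, 415 and 491 and 516, 415 and 426, and Insig2 752, 973 and 852 and 508, 664 and 1068; none was called between the tissues. The same holds for Abca1, at 767, 422 and 689 in thymic Tconv and 598, 445 and 739 in thymic Treg, and Abcg1, at 1172, 1025 and 1017 and 962, 786 and 979. The cell division sum was 11961 to 24128 in thymus and 4547 to 6244 in lymph node arrays, and its part in these differences was not tested.

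Over the 6 groups, the means of Insig1 ran from thymic Tconv through thymic Treg and the 2 lymph node groups to the 2 fat groups. The thymic Tconv arrays lay below the 65.89 of the dim filter. Lymph node Treg and Tconv (difference 0.09 ± 0.21) and fat Treg and Tconv (0.28 ± 0.21) were not told apart by the test. Thymic Tconv lay below thymic Treg and below lymph node Tconv by the tests above, while thymic Treg and lymph node Treg missed the threshold (-0.66 ± 0.21, adjusted p = 0.0502) and passed it without thymic Treg replicate 2 (-0.87, adjusted p = 0.0146), as deposited (0.0429), with the mean of all probe sets (0.0418) and with run as a random block (-0.75, 0.0219).

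Other genes around the pathway were taken from a list of 33, of which 28 were tested. Between fat and lymph node Treg, 4 were higher and 5 lower, and in Tconv 1 was higher and 10 lower. That is 32.1% called in Treg, near the 34.3% of all genes, and 39.3% in Tconv, against 22.5%; among all genes 11.6% were lower in Tconv. Lrp8, a lipoprotein receptor, was higher in fat in both (log2 difference 1.48 in Treg and 0.67 in Tconv). Nceh1, a cholesteryl ester hydrolase (0.78), Vldlr, another lipoprotein receptor (0.49), and Cyp27a1, a sterol hydroxylase (0.48), were higher in fat Treg. Lower in both were genes of the isoprenoid branch, Coq2 of ubiquinone synthesis (-1.06 and -0.65), Fntb of the farnesyltransferase (-0.53 and -0.59) and Nus1 of dolichol synthesis (-0.37 and -0.36), and Mylip, an LXR target that degrades lipoprotein receptors (-0.56 and -0.61). Fnta, the subunit shared by both protein prenyltransferases, was lower in Treg (-1.06). In Tconv, Lipa, the lysosomal acid lipase, was lower by the widest margin (-1.43), followed by Gramd1a, a sterol transfer protein (-1.01), Lpcat3, an LXR target of phospholipid remodelling (-0.92), and Mbtps2, the SREBP-cleaving site 2 protease (-0.90). Ggps1 (-0.56) and Erlin2 (-0.47) were also lower there. Between Treg and Tconv, Nceh1 (0.83) and Lrp8 (0.70) were higher in fat Treg. Gramd1a was lower in Treg of lymph node (-0.99), the single call of the 28 there, and of thymus (-0.96), where Mylip was lower too (-0.88). Between thymus and lymph node, Lrp8 was higher in thymus in Treg (0.65) and Tconv (0.63), Mylip was higher (0.54) and Gramd1a lower (-0.75) in Tconv, and Ggps1 was lower in Treg (-0.58).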

How the data were processed

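The authors deposited 1 linear intensity for each probe set and array, computed by RMA in GenePattern per the labels; its version and the arrays normalized together are not given in the sources used here. Of 45101 probe sets, 34945 carried exactly 1 symbol. Each gene took the probe set with the highest mean log2 intensity over 18 arrays, and the filter kept genes with at least 1 of 6 group means above the median of all values (65.89). Log2 intensities were fitted with limma 3.58.1 in R 4.3.3, with 1 coefficient per group, 12 residual and 4.83 prior degrees of freedom. The script was tested on simulated data. No column of another sample was used; for arrays no depth is given, and 3 arrays per group limit the precision.

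The members and lists were chosen with earlier results of these data known. Every member is named, with each array's value where it was called between 2 groups or belongs to the SREBP control circuit; other genes are named only when called. Alternatives were the scale, the dim filter, 16 added to each intensity, the mean of all probe sets and the replicate block. Others were the run as a block, fits on the groups compared and leaving out each array. Only replicate 2 of each fat group was a further setting, chosen after seeing the data. Deviations of Treg and Tconv arrays of the same number correlated within a tissue (0.351 to 0.678 in 9 pairs, -0.559 to 0.190 for other numbers). They were taken from group means, which pushes the values of other numbers negative once those of the same number are positive. Because the same numbers correlated positively in all 9 pairs, the numbers, given in the labels, were taken to pair these samples. The main tests of Treg against Tconv ignore this pairing, and the paired fit is given as the replicate block. Such arrays also shared a run, so paired samples cannot be told apart from a shared run. Between fat and lymph node, arrays of the same number did not correlate (-0.504 to 0.097). Arrays of the same run gave -0.048 to 0.476 there, and those of other runs -0.504 to 0.300. Runs were read from blocks of array file numbers in the labels and are not stated to be scan or hybridisation days.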

Additional observations from a re-analysis of the deposited data

Results flagged for a closer look

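Hsd17b7 was the single member for which the Treg difference itself was called between tissues in the fit without a block. Treg exceeded Tconv by 0.88 in fat and by -0.09 in lymph node on the log2 scale, and the difference between these was 0.98 ± 0.25 (SE; limma, adjusted p = 0.0271). The call was lost in 9 of 20 alternatives. With the mean of all 4 probe sets of the gene the difference was 0.40 (adjusted p = 0.232), and the other 3 probe sets taken singly gave 0.42, 0.29 and -0.10. Hmgcs1, at 1.04 ± 0.32 (adjusted p = 0.0806), was called as well with the replicate block (adjusted p = 0.00656), with run as a random block (0.0149) and in a fit on the groups compared (0.00533).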

How the results depend on the processing

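The 31 called values of members were each refitted under the alternatives, 483 refits in all. None reversed, 423 kept the call and 60 lost it. The number of members called was within 1.5 times its reported value in all but the following settings. With the replicate block, 1 member instead of 0 was called between Treg and Tconv in lymph node, 7 instead of 3 in thymus and 6 instead of 3 in fat. It gave 2 instead of 1 for the Treg difference in fat minus lymph node and 2 instead of 0 in fat minus thymus. For thymus against lymph node in Treg it gave 4 instead of 2. Other counts under the replicate block stayed within that margin. The replicate numbers were not found to pair arrays of different tissues. For comparisons between tissues this block, also in the refits above, is therefore not a paired analysis. With run as a random block the counts were 1 in lymph node, 5 in fat, 4 for thymus against lymph node in Tconv, 2 for fat minus lymph node and 2 for fat minus thymus. As deposited, 17 instead of 11 were called for fat against lymph node in Treg, 15 instead of 9 in Tconv, and 4 for thymus against lymph node in Treg. Fitting only the groups compared gave 1 in thymus, 1 and 4 for thymus against lymph node in Treg and Tconv, and 2 for fat minus lymph node. The mean of all probe sets gave 1 in fat, 4 for thymus against lymph node in Treg and 0 for fat minus lymph node. Centring each array on its median gave 1 for thymus against lymph node in Treg, 1 in Tconv and 0 for fat minus lymph node. Quantile normalization gave 1 for fat minus thymus. Only replicate 2 of each fat group gave 0 between Treg and Tconv in fat and 3 for fat against lymph node in Tconv. The causes were not tested.

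Leaving out 1 array at a time gave 0 to 0 members in lymph node, 3 to 4 in thymus and 1 to 2 in fat. It gave 10 to 11 and 7 to 9 for fat against lymph node in Treg and Tconv, 1 to 3 and 1 to 2 for thymus against lymph node, and 0 to 1 for each of the 3 differences of the Treg effect. Called values that failed most often were Hmgcs1 between Treg and Tconv in fat (10 of 15), Sc5d in fat against lymph node Treg (8 of 16), Idi1 in thymus against lymph node Treg (7 of 14), Hsd17b7 for fat minus lymph node (9 of 20) and Idi1 in fat against lymph node Tconv (6 of 16). Over all genes, the replicate block moved the calls for fat minus lymph node from 622 to 1416, for thymus minus lymph node from 39 to 136 and for fat minus thymus from 793 to 1855. Run as a random block gave 871 in lymph node, 1168 in thymus, 1084, 94 and 1396 for these differences. Only the groups compared gave 383 in thymus and 753 instead of 1517 for thymus against lymph node Treg. Only replicate 2 of each fat group gave 558 instead of 1476 between Treg and Tconv in fat, 2347 instead of 4392 for fat against lymph node in Treg and 988 instead of 2887 in Tconv. Without thymic Treg replicate 3 the calls were 976 instead of 638 between Treg and Tconv in thymus and 69 for thymus minus lymph node.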
